A study of Homo sapiens with 54 samples.

Results

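RNA levels of 9 genes of the Nodal pathway, not signalling itself, were followed in human pluripotent stem cells. These were the ligand genes NODAL and GDF3, the gene INHBA for the activin A subunit, the co-receptor gene TDGF1 (Cripto), the transcription factor gene FOXH1, the genes LEFTY1, LEFTY2 and CER1 for secreted inhibitors, and the gene SMAD7 for an intracellular inhibitor. Members were found through the RefSeq accession of each array probe. Each of the 9 genes had 1 probe, so that 9 of the 42405 probes on the array were members.

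Nodal and activin are ligands of the TGF-beta family. They bind paired type I and type II receptors, which phosphorylate SMAD2 and SMAD3, and these enter the nucleus with SMAD4, where FOXH1 is one of their DNA-binding partners. Nodal, unlike activin, needs an EGF-CFC co-receptor such as Cripto. NODAL, LEFTY1, LEFTY2 and CER1 are known targets of the pathway itself, and the Lefty and Cerberus proteins limit the range of the signal. In human embryonic stem cells (ESCs) the pathway is known for its part in keeping the undifferentiated state together with FGF.

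RNA was measured on 54 one-colour arrays, which hold 27 cultures on 2 arrays each. The series asked whether FGFC, a chimeric FGF protein, can take the place of bFGF in culture. H1 ESCs were grown in E8 Medium, which is Essential 6 Medium with 2 ng/mL of TGF-beta 1 and 100 ng/mL of FGF, and each of 3 experiments had a pre-culture with bFGF and 3 arms of 4 days, in which the medium held bFGF, FGFC or no FGF. By the titles, the pre-cultures were at passages 48, 49 and 50 and the arms of experiments 1 to 3 at passages 49, 59 and 51, and on 5 arrays of experiment 3 the passage field differs from the title. In 5 further systems, 1 pre-culture with bFGF was carried on with bFGF or with FGFC, in 1 culture each. The systems were H1 in E8 Medium for 30 days and 253G1 induced pluripotent stem cells (iPSCs) in E8 Medium for 36 days, both at 100 ng/mL, H1 in medium conditioned by mouse embryonic fibroblasts (MEF-CM) for 41 days and KhES-1 ESCs on MEF feeder cells for 30 days, both at 5 ng/mL, and 201B7 iPSCs on MEF feeder cells for 50 days at 10 ng/mL. The pre-culture of H1 in E8 Medium is that of experiment 1. All cultures in E8 Medium, also those without FGF, received TGF-beta 1, and the labels name no TGF-beta 1 for the MEF-based media. A further culture of H1 from E8 Medium was differentiated by way of embryoid bodies. Levels are given as log2 of the signal relative to the 75th percentile of the array, and they compare cultures for 1 probe, not 1 gene with another.

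The probes of NODAL, LEFTY1, LEFTY2, TDGF1, FOXH1 and SMAD7 were well above background on all 54 arrays, those of GDF3 and INHBA on 53 and that of CER1 on 18. The 7 markers of pluripotent cells were well above background in all 27 cultures, with a mean level of 4.67 to 5.54 in the 14 cultures in E8 Medium with FGF, 5.21 to 5.85 in the 9 MEF-based cultures and 1.55 in the differentiated culture. Duplicate arrays of a member differed by a median of 0.05 to 0.11 on the log2 scale, and of 0.26 for CER1. The largest differences between duplicates were 2.22 for GDF3, 1.59 for TDGF1 and 1.50 for NODAL, all in the differentiated culture, 1.87 for SMAD7 in H1 after 30 days with bFGF and 1.86 for CER1 in 253G1 with FGFC. Transcripts of the near-identical genes LEFTY1 and LEFTY2, and of TDGF1 and its copies elsewhere in the genome, may share probes in part, and the probe sequences were not used here.

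The RefSeq table of promoters (build GRCh38.p14, 250 bases before to 50 after a start site) held 6 of the 9 members. Promoters of 4 genes are shown because their levels carry the results below. NODAL and CER1 were higher in MEF-based cultures, and TDGF1 and GDF3 fell without FGF. They lie at chr10:70441632-70441931 on the minus strand (NODAL), chr3:46574285-46574584 on the plus strand (TDGF1), chr12:7695726-7696025 on the minus strand (GDF3) and chr9:14722684-14722983 on the minus strand (CER1), and TDGF1 has another listed start site. Capitals mark matches, on either strand, to the FOXH1 sequence TGTNNATT or to the SMAD-binding sequence CAGACA.
NODAL: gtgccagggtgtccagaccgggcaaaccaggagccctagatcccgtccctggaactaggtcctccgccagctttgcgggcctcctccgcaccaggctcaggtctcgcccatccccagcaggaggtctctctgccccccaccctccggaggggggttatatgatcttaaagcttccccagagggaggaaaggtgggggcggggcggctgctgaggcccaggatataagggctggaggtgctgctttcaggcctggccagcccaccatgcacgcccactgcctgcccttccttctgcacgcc
TDGF1: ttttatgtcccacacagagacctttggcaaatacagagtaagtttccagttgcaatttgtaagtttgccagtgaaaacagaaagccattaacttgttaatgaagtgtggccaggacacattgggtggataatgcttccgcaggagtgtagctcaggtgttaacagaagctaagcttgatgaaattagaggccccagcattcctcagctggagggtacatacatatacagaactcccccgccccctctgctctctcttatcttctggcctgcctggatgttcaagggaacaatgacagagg
GDF3: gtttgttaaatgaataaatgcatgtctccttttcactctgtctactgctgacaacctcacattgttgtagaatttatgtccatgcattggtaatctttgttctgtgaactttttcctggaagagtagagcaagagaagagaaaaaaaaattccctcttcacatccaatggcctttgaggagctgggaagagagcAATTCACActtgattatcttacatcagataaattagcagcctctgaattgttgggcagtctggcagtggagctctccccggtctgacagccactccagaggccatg
CER1: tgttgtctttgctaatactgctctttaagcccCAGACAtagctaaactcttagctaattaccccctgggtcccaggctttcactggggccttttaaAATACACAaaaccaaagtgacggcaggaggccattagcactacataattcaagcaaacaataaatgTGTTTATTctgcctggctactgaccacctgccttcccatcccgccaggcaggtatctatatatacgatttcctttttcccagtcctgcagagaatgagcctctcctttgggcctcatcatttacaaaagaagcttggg
The CER1 promoter held 2 matches to the FOXH1 sequence and 1 to the SMAD sequence, none of which overlap. The GDF3 promoter held 1 match to the FOXH1 sequence, and the NODAL and TDGF1 windows held none to either. Of 34943 promoters in the table, 11.1% held the FOXH1 sequence and 16.9% the SMAD sequence, and the palindromic SMAD sequence GTCTAGAC, found in 0.203% of all promoters, was in none of these 4.

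Over the 27 cultures, the members followed different courses. NODAL, LEFTY1, LEFTY2 and CER1 were higher in every MEF-based culture than in any culture in E8 Medium with FGF. So was GDF3, by only 0.0033, and so were 0.679% of all probes. For CER1 the gap was smaller than its duplicate arrays typically differ. TDGF1 stayed within 5.21 to 6.32 in all 23 undifferentiated cultures with FGF, and it was lower in each culture without FGF and in the differentiated culture. FOXH1 lay between -0.85 and 0.35 in the 23 cultures with FGF.

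**Figure D1:**
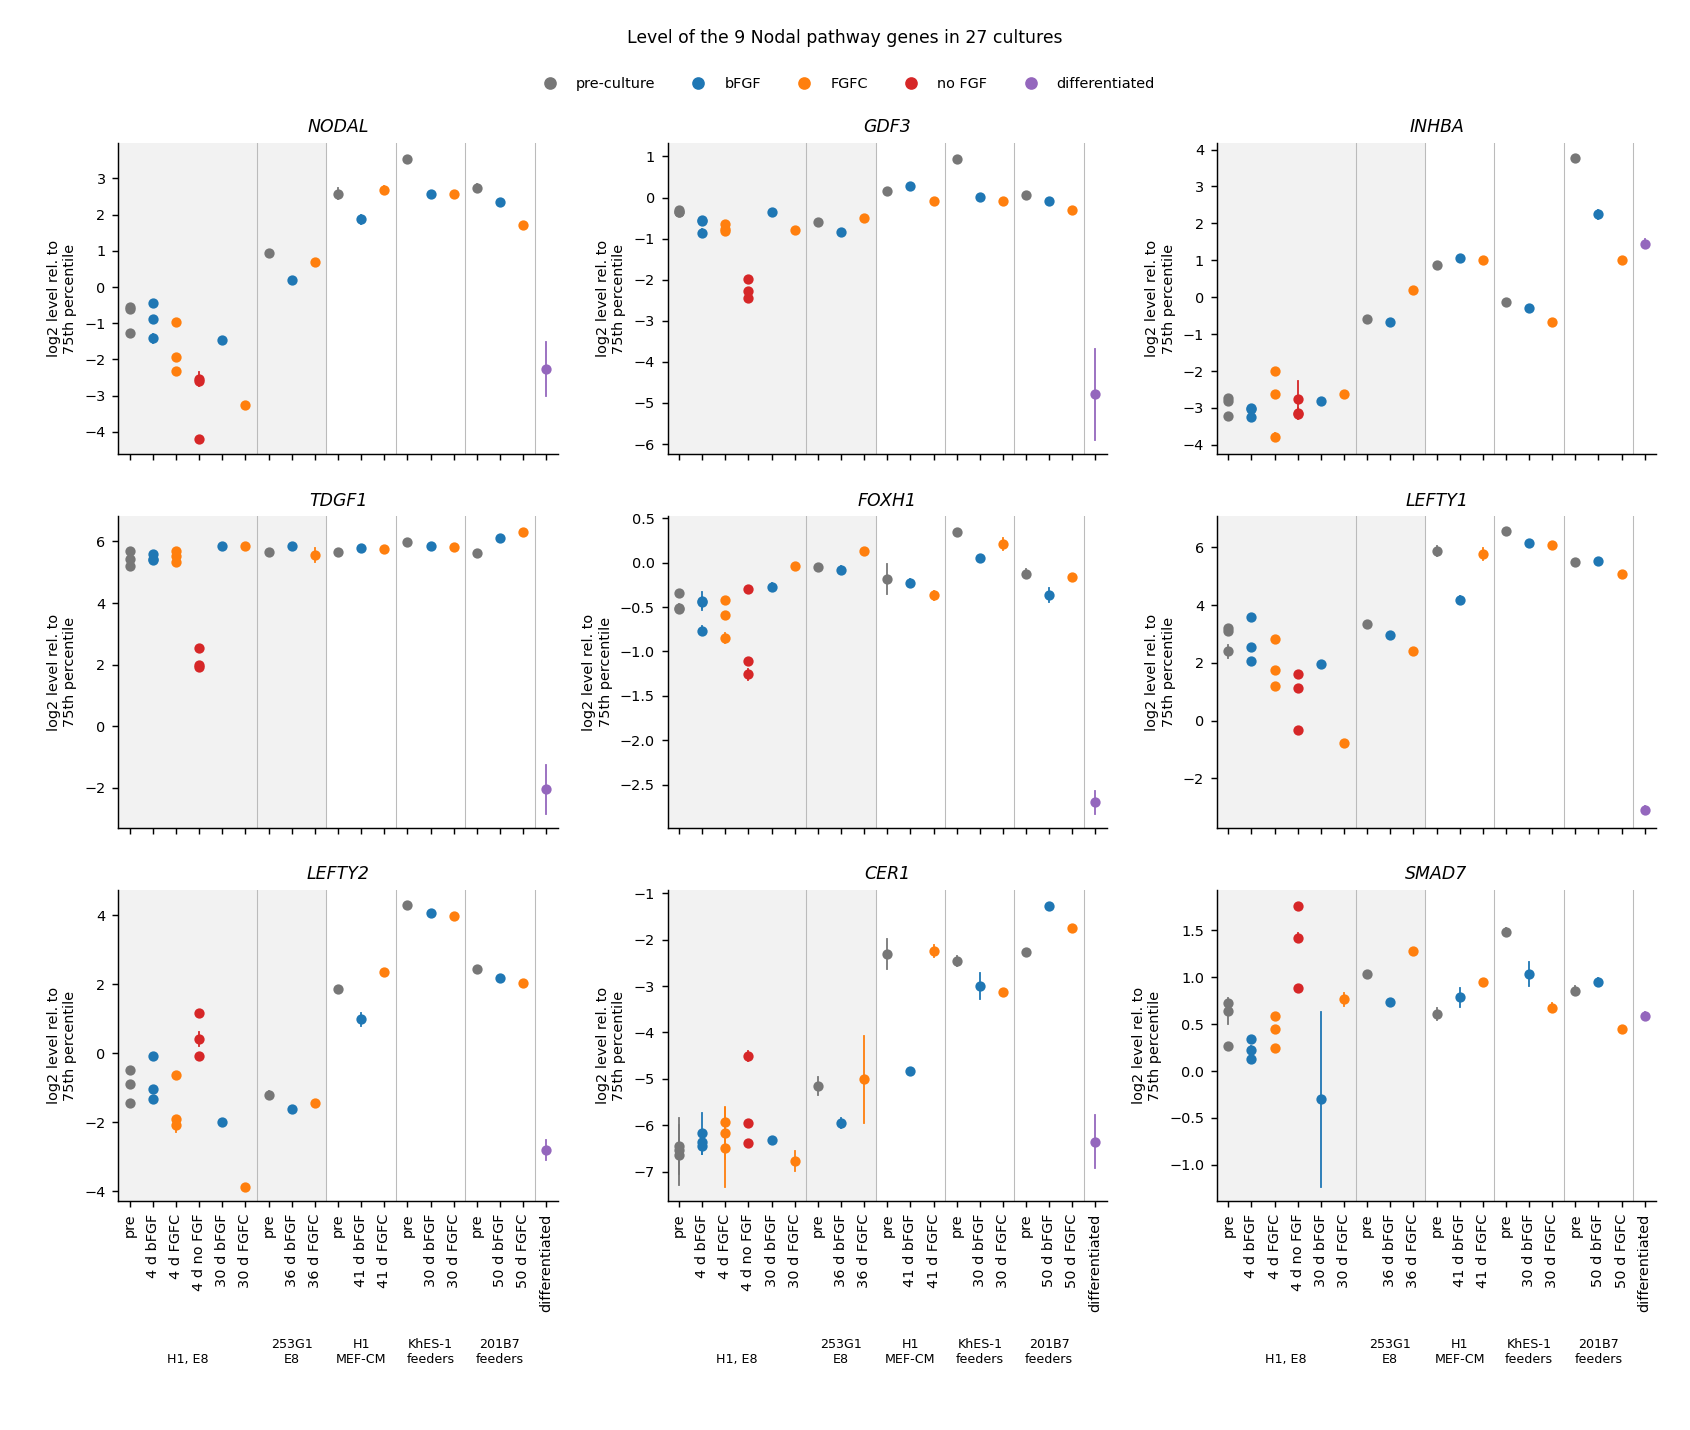
Level of each member (y axis, log2 signal relative to the 75th percentile of the array) in every culture (x axis, by system and condition). Points are cultures (means of 2 arrays), vertical lines join the duplicate arrays, and grey shading marks E8 Medium. NODAL, LEFTY1, LEFTY2 and CER1 are higher in all 9 MEF-based cultures than in all 14 cultures in E8 Medium with FGF. So is GDF3, by only 0.0033, and so are 0.679% of all probes. For CER1 the gap is smaller than its duplicate arrays typically differ.

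Removal of FGF for 4 days lowered the ligand genes NODAL and GDF3, the co-receptor gene TDGF1 and the inhibitor gene LEFTY1, and raised SMAD7. Against bFGF, limma called 4 members lower and 1 higher, where 7.19% of all 42405 probes were called lower and 5.54% higher (12.7% in all). TDGF1 showed the largest change among the members. Its level was 1.98, 2.55 and 1.93 without FGF in experiments 1 to 3, 5.43, 5.59 and 5.39 with bFGF and 5.70, 5.32 and 5.53 with FGFC. The cultures without FGF lay far below those with either factor, and the fall of 3.32 ± 0.21 (SE, n = 3) from bFGF, 9.97-fold, had an adjusted p of 3.06e-06 by limma.

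NODAL, the ligand itself, was at -2.59, -2.54 and -4.19 without FGF, at -0.45, -0.88 and -1.42 with bFGF and at -0.98, -1.92 and -2.32 with FGFC. The levels without FGF did not overlap those of either other arm. NODAL fell by 2.19 ± 0.48 (SE, n = 3) against bFGF, 4.57-fold (adjusted p = 0.0115, limma), and its difference from FGFC was -1.37 ± 0.48 (SE; adjusted p = 0.102, limma). With the experiment as a block the difference from FGFC also passed the test (adjusted p = 0.00923, limma). The fall against bFGF missed the threshold without experiment 1 (adjusted p = 0.0579, limma) or experiment 2 (adjusted p = 0.0917, limma).

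GDF3, a ligand that also uses Cripto, was at -1.99, -2.46 and -2.26 without FGF, at -0.57, -0.54 and -0.86 with bFGF and at -0.65, -0.78 and -0.81 with FGFC. It was lower without FGF in 3 of 3 experiments against either factor. The fall was 1.58 ± 0.17 (SE, n = 3; adjusted p = 0.000107, limma) from bFGF, a 3.00-fold change, and 1.49 ± 0.17 (SE; adjusted p = 0.000187, limma) from FGFC. INHBA, whose product forms activin A, did not follow: it was at -3.16, -2.77 and -3.15 without FGF and at -3.25, -3.01 and -3.03 with bFGF, a difference of 0.08 ± 0.36 (SE, n = 3; 95% confidence interval -0.72 to 0.87).

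The Lefty genes moved in opposite directions when FGF was removed. In the fit without a block or normexp background correction, however, neither comparison had both past the test. LEFTY1 was at 1.12, 1.61 and -0.32 without FGF, at 3.60, 2.54 and 2.06 with bFGF and at 2.83, 1.75 and 1.18 with FGFC. Its fall from bFGF was 1.93 ± 0.57 (SE, n = 3), 3.81-fold (adjusted p = 0.0469, limma), present in 3 of 3 experiments but short of the threshold without any 1 of them (adjusted p = 0.131 to 0.177, limma), with the second array of each culture (0.0735) or with only the 2 arms fitted (0.0629). The cultures without FGF overlapped those with FGFC, from which LEFTY1 differed by -1.12 ± 0.57 (SE, n = 3, adjusted p = 0.281, limma). LEFTY2 was at 0.41, 1.16 and -0.08 without FGF, at -0.07, -1.34 and -1.05 with bFGF and at -0.64, -2.10 and -1.90 with FGFC. LEFTY2 was thus higher without FGF in every experiment, but the groups without FGF and with bFGF overlapped. It rose by 2.05 ± 0.47 (SE, n = 3) against FGFC, 4.13-fold (adjusted p = 0.0169, limma), a call lost without experiment 2 (adjusted p = 0.264, limma) or experiment 3 (adjusted p = 0.156, limma). Its difference from bFGF was 1.32 ± 0.47 (SE; adjusted p = 0.0985, limma), which passed with the experiment as a block (adjusted p = 0.0466, limma) and with normexp background correction. Within the experiments, LEFTY1 differed from bFGF by -2.48, -0.93 and -2.38 and LEFTY2 by 0.49, 2.50 and 0.97.

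SMAD7, which blocks the type I receptors, was at 1.76, 0.88 and 1.42 without FGF, at 0.12, 0.22 and 0.34 with bFGF and at 0.59, 0.25 and 0.45 with FGFC. The groups did not overlap. The rise was 1.13 ± 0.23 (SE, n = 3; adjusted p = 0.00743, limma) over bFGF and 0.93 ± 0.23 (SE; adjusted p = 0.0237, limma) over FGFC. The first call was lost without experiment 1 (adjusted p = 0.0719, limma) or 3 (adjusted p = 0.176, limma), and the second without any 1 experiment (adjusted p = 0.068 to 0.341, limma) or with only the 2 arms fitted (0.103). FOXH1 differed from bFGF by -0.34 ± 0.24 (SE, n = 3; 95% confidence interval -0.88 to 0.19), with levels of -0.30, -1.26 and -1.11 against -0.45, -0.43 and -0.77. CER1 was not well above background on any array of the 4-day arms.

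Against FGFC, 4 members passed the test, TDGF1 and GDF3 lower and LEFTY2 and SMAD7 higher, where 10.8% of all probes passed (6.07% lower and 4.72% higher). TDGF1 fell by 3.36 ± 0.21 (SE, n = 3; adjusted p = 3.71e-06, limma). Experiments 1 and 3 had all 3 arms on 1 slide each, and the within-slide differences from bFGF are those of these experiments: -3.45 and -3.46 for TDGF1, -2.14 and -2.77 for NODAL, -2.48 and -2.38 for LEFTY1, -1.43 and -1.41 for GDF3, 1.64 and 1.08 for SMAD7. With the slide as a random block, the same 5 members passed against bFGF (adjusted p of 1.38e-06 for TDGF1, 3.09e-05 for GDF3, 0.00196 for SMAD7, 0.00212 for NODAL and 0.0102 for LEFTY1, limma), and NODAL passed against FGFC too (adjusted p = 0.0241, limma). More of all probes passed with that block as well, 17.8% against bFGF and 16.5% against FGFC.

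**Figure D2:**
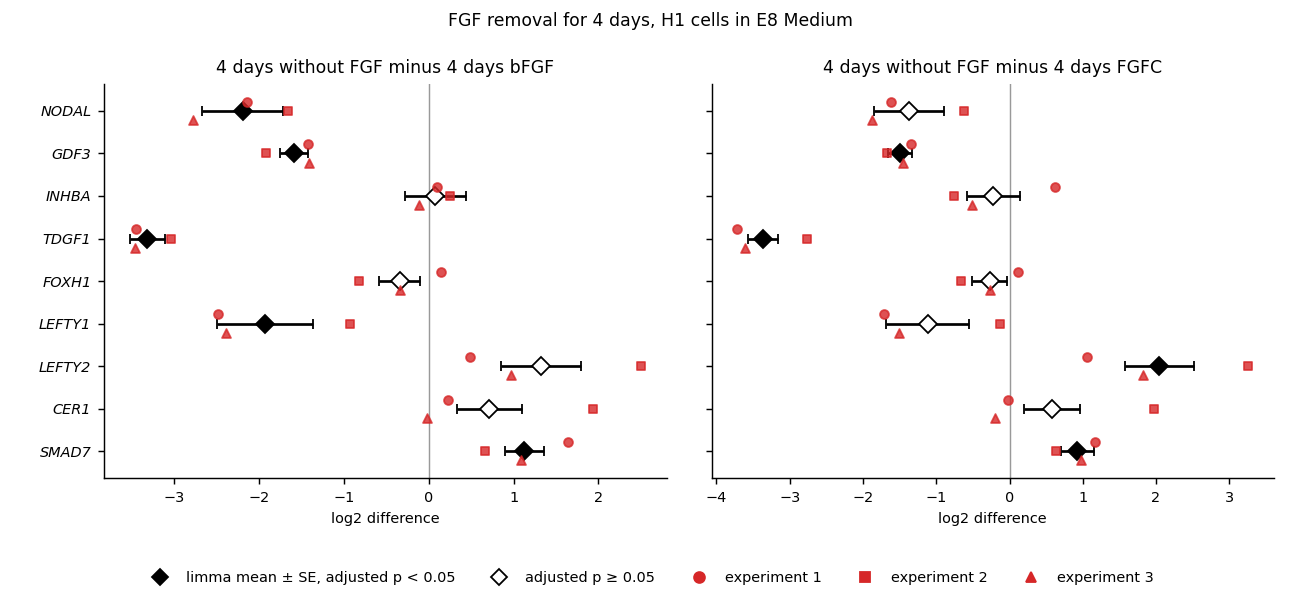
Log2 difference of 4 days without FGF from 4 days with bFGF (left) and with FGFC (right) for each member in H1 in E8 Medium. Diamonds with bars are limma's mean ± SE over 3 experiments, filled where the adjusted p is below 0.05, and red symbols are the experiments; LEFTY1 lies left of 0 and LEFTY2 right of 0 in all 3.

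Some markers of other cell types moved with FGF removal, where 5.54% of all probes rose and 7.19% fell against bFGF. Of 6 markers of trophoblast or amnion, 3 rose against bFGF, and their mean level was -3.62 to -2.51 in the 3 cultures without FGF against -5.43 to -4.89 with bFGF. Of 4 markers of neuroectoderm, 3 rose, with a mean level of -2.44 to -0.83 against -4.21 to -3.90. With bFGF 1 marker of each list was well above background, and without FGF 2 or 3 were. These means thus rest in part on signals near background. Some calls in both lists were lost without experiment 3 (adjusted p = 0.0824 to 0.314, limma). Those of the neuroectoderm markers NES and ZIC1 were also lost without experiment 2 (adjusted p = 0.2 and 0.0607, limma). That of ISL1, in the trophoblast or amnion list, was also lost without experiment 1 (0.0728) and with normexp background correction (0.0862). Of 4 endoderm markers 0 passed, of 5 mesendoderm markers 1 rose and 1 fell, and of 8 fibroblast markers 0 rose and 2 fell. The mean level of the 7 pluripotency markers was 4.62 to 4.97 without FGF and 4.87 to 5.05 with bFGF, with 2 of them lower and 1 higher. In such bulk RNA, fewer cells that express a gene and less RNA per cell cannot be told apart, and the part of other cell types in the members' changes was not tested.

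Other genes of the pathway were examined as a list of 35 receptors, SMADs, ligands, processing enzymes and inhibitors. Of these, 5 rose and 6 fell against bFGF, where 5.54% of all probes rose and 7.19% fell. Their median was 0.24 beside 0.01 over all probes. FST, which encodes the activin-binding inhibitor follistatin, rose most, from -0.55 ± 0.37 (SD, n = 3) with bFGF to 3.45 ± 0.33 (SD, n = 3), a difference of 4.00 ± 0.29 (SE; adjusted p = 8.49e-06, limma). TGFBR3 (betaglycan) rose by 1.63 and SMAD6, an inhibitory SMAD, by 1.62. INHBE and INHA, which encode further subunits of the inhibin family, fell by 2.59 and 1.33. The type I receptor gene ACVR1C fell by 1.71 at its brightest probe, while its 2 other probes, well above background on 1 and 3 of the 18 arrays of the 4-day arms, differed by -0.85 and 1.16 without passing the test. Calls against bFGF were lost for INHBE without experiment 1 (adjusted p = 0.0779, limma) or 3 (0.0885), for ACVR1C without experiment 2 (0.0731), for SMAD6 without experiment 2 (0.0578), and for INHA without any 1 experiment (0.0675 to 0.199) or with normexp background correction (0.282). Against FGFC, 5 of the 35 rose and 4 fell, where 4.72% of all probes rose and 6.07% fell. Among those that rose was TGIF2, which encodes a co-repressor of SMADs, by 0.99 (adjusted p = 0.0304, limma, and 0.0801 to 0.376 without any 1 experiment). The TGF-beta 2 gene, TGFB2, 1 of the 5 that rose against bFGF, was not well above background on any array of the 4-day arms or the H1 pre-cultures, and it was named after its values were seen.

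Of 19 genes known to respond to Nodal or activin in embryos or stem cells, 8 rose and 3 fell against bFGF. Of all probes, 5.54% rose and 7.19% fell. The median of the 19 was 0.77 beside 0.01 over all probes. FGF8, which encodes another FGF, rose from -5.40 to -1.60 and was well above background on 1 of 6 arrays with bFGF. Against FGFC, where FGF8 was not well above background on any of 6 arrays, it was at least 11.2-fold higher. HHEX, a homeobox gene of the anterior endoderm, was well above background on 4 of 6 arrays without FGF and on 0 of 6 with bFGF. Its mean without FGF, -3.56 ± 2.09 (SD, n = 3), was at least 4.69-fold above bFGF, a bound on the mean of cultures that spread widely. The HHEX call was lost without experiment 1 (adjusted p = 0.116, limma) or 3 (0.293), as was that of FGF8 without experiment 3 (0.0536). CXCR4 rose by 3.03, OTX2 by 3.19 and ID1, a target chiefly of BMP signalling, by 2.81. The 3 that fell were NANOG, GSC and CDKN1A, of which GSC and CDKN1A were named after their values were seen. NANOG fell by 1.71, GSC fell by 1.54 and CDKN1A fell by 1.24, and GSC was well above background on 0 of 6 arrays without FGF. Their calls were lost without experiment 3 (adjusted p = 0.0562 for NANOG, 0.249 for GSC and 0.25 for CDKN1A, limma), and those of GSC and CDKN1A also without experiment 2 (0.173 and 0.127) and with normexp background correction (0.413 and 0.326). TBXT, 1 of the 8 that rose and named after its values were seen, was not well above background on any array of the 4-day arms. Against FGFC, 7 of the 19 rose and 1 fell, where 4.72% of all probes rose and 6.07% fell. Among those that rose was WNT3, a Wnt ligand gene, by 1.87 (adjusted p = 0.0148, limma, and 0.131 without experiment 1 or 2). The response genes thus went both ways, as the members did.

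**Figure D3:**
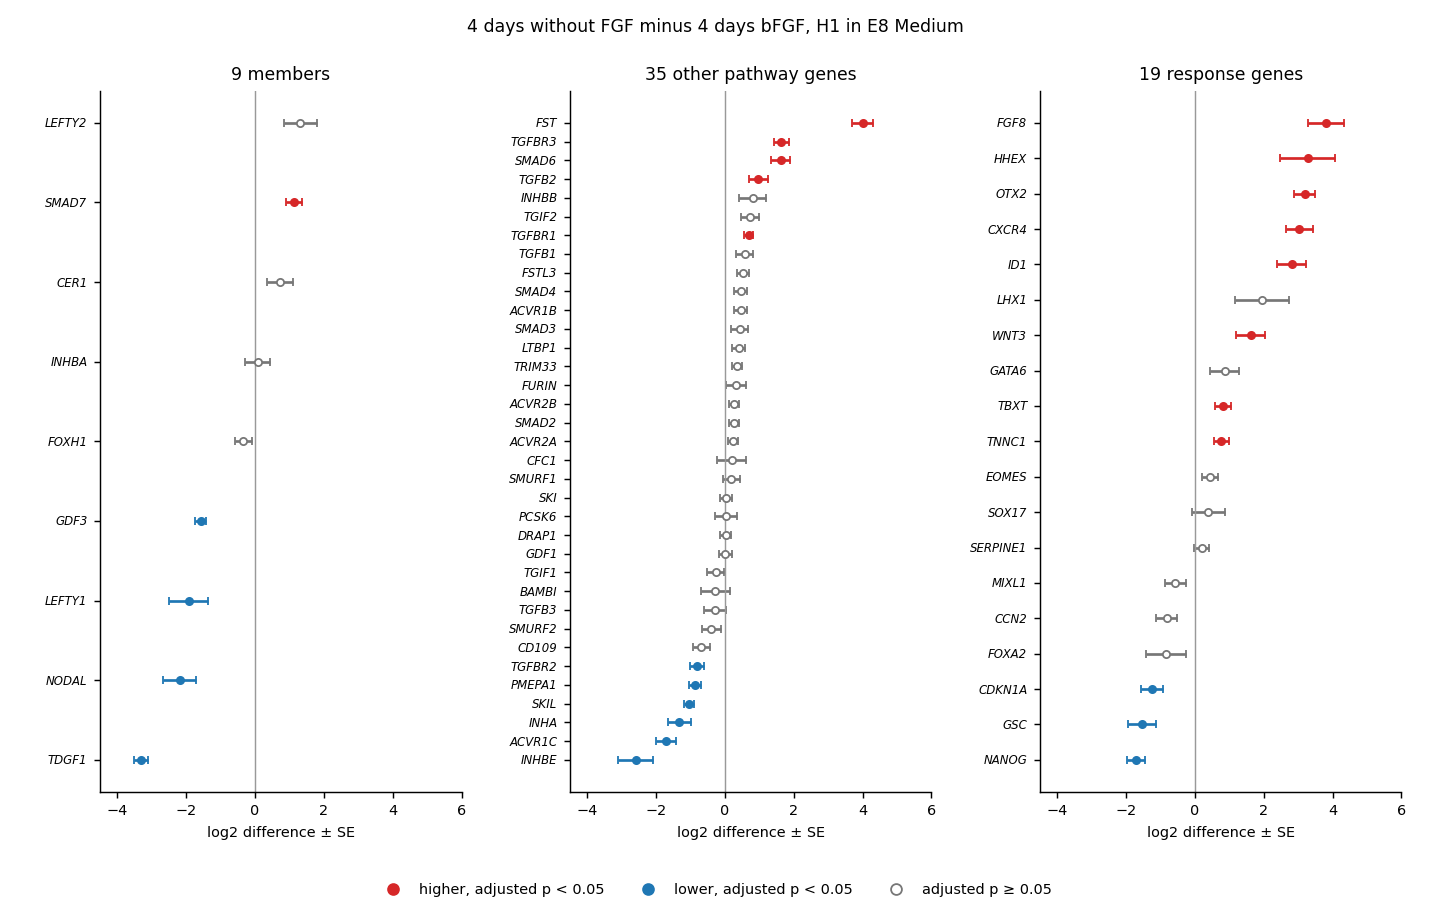
Log2 difference of 4 days without FGF from 4 days with bFGF (x axis, limma's estimate ± SE, n = 3 experiments) for the members, the 35 other pathway genes and the 19 response genes. Filled points passed the test over all probes; FST and FGF8 have the largest rises of their lists.

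Replacement of bFGF by FGFC for 4 days changed none of the members by limma's test, which called 0 of 42405 probes, while 1262 (2.98%) had an unadjusted p below 0.05, and none of these was a member. NODAL was lower with FGFC in each experiment, by 0.53, 1.04 and 0.90, LEFTY1 by 0.77, 0.79 and 0.88 and LEFTY2 by 0.57, 0.76 and 0.86. Of all probes, 6.96% were lower in 3 of 3 experiments. The groups overlapped for all 9 members, and the mean differences were -0.82 ± 0.48 for NODAL, -0.81 ± 0.57 for LEFTY1 and -0.73 ± 0.47 for LEFTY2 (SE, n = 3; adjusted p of 1.00 each, limma). With the experiment as a block limma again called 0 probes, 1781 (4.2%) had an unadjusted p below 0.05, and NODAL (-0.82 ± 0.26, SE; unadjusted p = 0.0108, adjusted p = 0.849, limma) and LEFTY1 (-0.81 ± 0.32, SE; unadjusted p = 0.0333, adjusted p = 1.00, limma) were among them. TDGF1 differed by 0.05 ± 0.21 (SE; 95% confidence interval -0.41 to 0.50).

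After long-term culture, the difference between FGFC and bFGF went opposite ways in H1 cells in the 2 media. In E8 Medium, NODAL was at -3.27 with FGFC and -1.46 with bFGF, LEFTY1 at -0.78 and 1.94, and LEFTY2 at -3.88 and -1.99. FGFC was thus lower by 3.49-fold for NODAL, 6.60-fold for LEFTY1 and 3.70-fold for LEFTY2, and the arrays of the 2 cultures did not overlap. In MEF-CM, NODAL was at 2.69 with FGFC and 1.87 with bFGF, LEFTY1 at 5.75 and 4.18, LEFTY2 at 2.35 and 0.99, and CER1 at -2.25 and -4.83. There FGFC was higher by 1.77-fold, 2.97-fold, 2.57-fold and 6.01-fold. In each of these systems an arm is 1 culture, so that no test is possible within a system, and the FGFC and bFGF cultures of H1 lay on different slides in both media.

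Each arm was also set beside its pre-culture, but with 1 culture each this cannot show which arm was unusual. In H1 in E8 Medium, NODAL was 0.91 lower with bFGF and 2.72 lower with FGFC than the -0.55 of the pre-culture, and LEFTY2 differed from the pre-culture by -1.52 and -3.40. The other H1 pre-cultures in E8 Medium were lower, at -0.61 and -1.28 for NODAL and -0.88 and -1.46 for LEFTY2. In MEF-CM the bFGF culture shared a slide with the pre-culture, and in E8 Medium with 1 of the 2 pre-culture arrays. The FGFC culture shared no slide with the pre-culture in either medium. In MEF-CM, the FGFC culture differed from the pre-culture by 0.11 for NODAL, -0.11 for LEFTY1, 0.07 for CER1 and 0.48 for LEFTY2, and the bFGF culture by -0.71, -1.68, -2.52 and -0.89. NODAL and LEFTY2 were lower than the pre-culture in the long-term bFGF culture of 5 of 5 systems, as were 5.67% of all probes, a comparison added after the values were seen.

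In the other systems the same genes differed less. NODAL differed by 0.49 in 253G1, -0.004 in KhES-1 and -0.66 in 201B7, LEFTY1 by -0.55, -0.04 and -0.43, and LEFTY2 by 0.18, -0.07 and -0.17. Counting changes of 2-fold or more, H1 in E8 Medium had 4 of 9 members changed in either direction (6.82% of all probes), H1 in MEF-CM 3 (4.38%), 201B7 1 (6.16%), and KhES-1 (3.15%) and 253G1 (6.98%) 0. The member counted as higher in H1 in E8 Medium was SMAD7, by 1.07, and the duplicate arrays of its bFGF culture were 0.63 and -1.24 against a mean of 0.76 with FGFC. The member lower in 201B7 was INHBA, by 1.22.

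Over the 5 systems together, limma with the system as a block called 0 of 42405 probes (2537, 5.98%, with an unadjusted p below 0.05, none of them a member). The mean difference was -0.23 ± 0.38 for NODAL, -0.44 ± 0.55 for LEFTY1 and -0.12 ± 0.42 for LEFTY2 (SE, n = 5). Without H1 in E8 Medium these became 0.16, 0.14 and 0.33. TDGF1 differed by -0.02 ± 0.10 (SE; 95% confidence interval -0.27 to 0.22) and FOXH1 by 0.14 ± 0.10 (SE; -0.09 to 0.37). Across the 4 pairs of H1 cultures in E8 Medium, 3 at 4 days and 1 at 30 days, NODAL, LEFTY1 and LEFTY2 were lower with FGFC in 4 of 4, as were 4.18% of all probes, a count added after the values were seen.

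The difference between FGFC and bFGF was also compared between the 2 systems in E8 Medium and the 3 in MEF-based media. No probe passed limma's test of this interaction (0 of 42405, 1920 with an unadjusted p below 0.05, 4.53%), and 2 members had an unadjusted p below 0.05. SMAD7 differed by 0.81 on average in E8 Medium and by -0.23 in the MEF-based systems (difference 1.04 ± 0.30, SE; adjusted p = 0.999, limma). With the first array of each culture in place of the mean of both, this difference was 0.66 ± 0.28 (SE; unadjusted p = 0.0646, adjusted p = 0.989, limma). INHBA differed by 0.53 and -0.55 (difference 1.08 ± 0.42, SE; adjusted p = 0.999, limma). For LEFTY1 the means were -1.64 and 0.37 (adjusted p = 0.999 for their difference, limma).

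**Figure D4:**
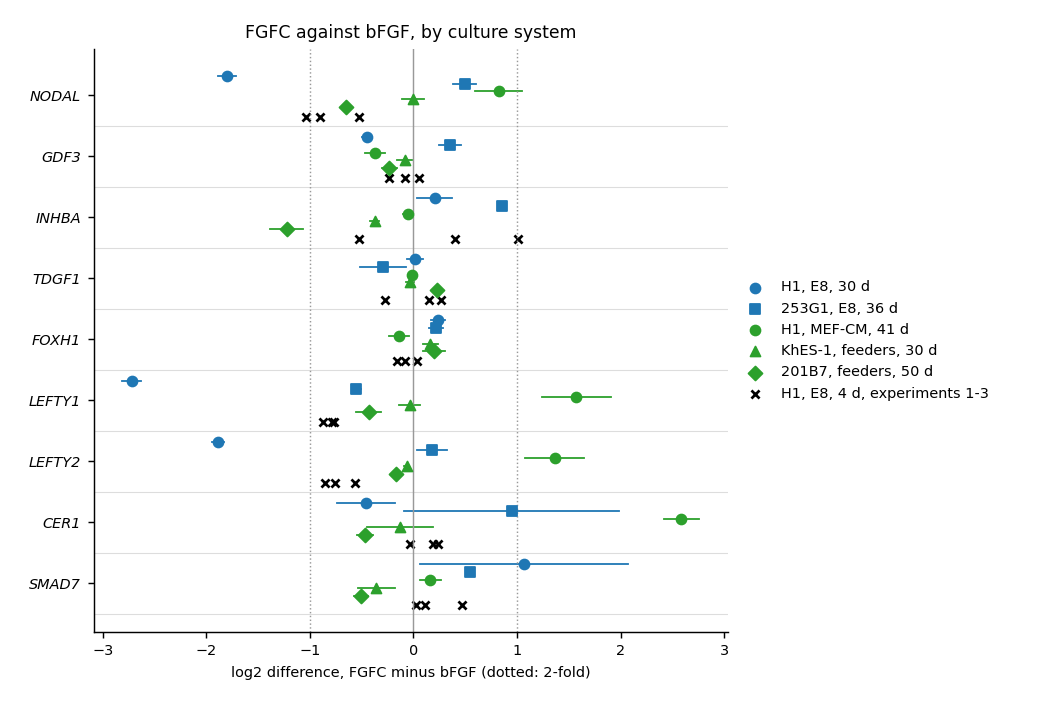
Log2 difference of FGFC from bFGF (x axis) for each member in the 5 long-term systems (blue, E8 Medium; green, MEF-based) and in the 4-day experiments (crosses). Lines span the differences between single duplicate arrays and dotted lines mark 2-fold; H1 lies left of 0 in E8 Medium and right of 0 in MEF-CM for NODAL, LEFTY1 and LEFTY2.

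NODAL and the genes of its secreted inhibitors, LEFTY1, LEFTY2 and CER1, were at lower levels in E8 Medium than in MEF-based media, while no probe passed limma's test between the kinds of system (adjusted p = 0.23 for each of these genes). In the 14 cultures in E8 Medium with FGF, NODAL ranged from -3.27 to 0.94 with a median of -0.93, and in the 9 MEF-based cultures from 1.70 to 3.55 with a median of 2.56. LEFTY1 ranged from -0.78 to 3.60 (median 2.48) and from 4.18 to 6.55 (median 5.75). LEFTY2 ranged from -3.88 to -0.07 (median -1.38) and from 0.99 to 4.31 (median 2.35). For these genes no culture in E8 Medium with FGF reached the lowest MEF-based culture.

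CER1, the gene of the Cerberus protein that binds Nodal and BMPs, was well above background on all 18 arrays of the MEF-based cultures and on 0 of the other 36 arrays. Its levels in MEF-based cultures ranged from -4.83 to -1.27 with a median of -2.31. The lowest of them, H1 in MEF-CM with bFGF, lay close to the highest culture in E8 Medium with FGF, 253G1 with FGFC at -5.01. The duplicate arrays of that 253G1 culture were at -5.94 and -4.08, and the latter lay above the MEF-CM culture. Over the 5 systems, CER1 was at least 7.72-fold higher in the MEF-based systems than in E8 Medium, where 0 of 12 arrays measured it (adjusted p = 0.23 for the measured difference, limma). GDF3 also did not overlap, but the highest culture in E8 Medium with FGF, -0.31, and the lowest MEF-based culture, also -0.31, lay only 0.0033 apart, less than duplicate arrays differ. These 5 members, all lower in E8 Medium, compare with 0.679% of all probes that were lower in E8 Medium without overlap.

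When each system counted once, as the mean of its pre-culture and 2 long-term cultures, NODAL was at -1.76 (H1) and 0.61 (253G1) in E8 Medium and at 2.38 (H1 in MEF-CM), 2.89 (KhES-1) and 2.26 (201B7). The neighbours at the upper end lay within the spread of their 3 cultures (SD 0.45 to 0.57). LEFTY2 was at -2.12 and -1.42 in E8 Medium and at 1.73, 4.12 and 2.22, with KhES-1 highest by more than the spread of its 3 cultures (SD 0.17). The system means of LEFTY1 were 1.46 and 2.92 in E8 Medium and 5.27, 6.26 and 5.36.

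The difference of E8 from MEF-based systems was -3.09 ± 0.65 for NODAL, -3.44 ± 0.53 for LEFTY1, -4.46 ± 0.68 for LEFTY2 and -2.61 ± 0.91 for INHBA (SE, n = 2 and 3 systems). No probe passed limma's test with 2 against 3 systems (0 of 42405; adjusted p = 0.23 for each of these genes and CER1), while 18.6% of probes and 5 of the 9 members had an unadjusted p below 0.05. At least 2-fold lower in E8 Medium were 5 of the 9 members and 2.62% of all probes, whose median was 0.15. With normexp background correction limma called 403 probes, these 5 members among them, and without 253G1 it called 45 probes, of which NODAL, LEFTY1, LEFTY2 and CER1 were 4. E8 Medium is then H1 alone, assumed to vary like the MEF-based systems, and without H1 in E8 Medium 0 probes were called. Cell line, FGF dose, added TGF-beta 1, slide and scan day all differ between the systems along with the medium, and their parts cannot be told apart. H1 cells alone, on 1 line, held NODAL at -0.55, -0.61 and -1.28 in 3 pre-cultures in E8 Medium and at 2.58 in the pre-culture in MEF-CM, and LEFTY2 at -0.48, -0.88 and -1.46 against 1.87.

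The co-receptor and the transcription factor did not follow the ligand. TDGF1 differed between the kinds of system by -0.18 ± 0.32 (SE; 95% confidence interval -0.92 to 0.56) and FOXH1 by -0.05 ± 0.34 (SE; -0.84 to 0.75). SMAD7 differed by -0.24 ± 0.37 (SE; -1.09 to 0.62). GDF3 was -0.67 ± 0.33 (SE; -1.44 to 0.09) in E8 relative to the MEF-based systems.

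INHBA also differed among systems in the same kind of medium. Its level was -3.21 to -2.61 in H1 in E8 Medium, -0.68 to 0.18 in 253G1, 0.86 to 1.07 in H1 in MEF-CM, -0.67 to -0.14 in KhES-1 and 1.02 to 3.78 in 201B7. The E8 and MEF-based cultures overlapped through 253G1 and KhES-1. In 201B7, INHBA fell from 3.78 in the pre-culture to 2.24 with bFGF and 1.02 with FGFC. The arrays of that pre-culture were the dimmest of all, with 75th percentiles of 181.5 and 234.1. They lay on another slide and scan day than the 50-day cultures. The mean level of 8 fibroblast markers was also highest there among undifferentiated cultures, at -0.71 to 0.20 against -2.01 to -1.85 in H1 in MEF-CM, -2.12 to -1.98 in KhES-1 and -2.40 to -1.56 in E8 Medium with FGF. Of these 8 markers, 5 or 6 were well above background in each MEF-based culture and 4 in each culture in E8 Medium with FGF. The part of feeder RNA in the level of INHBA was not tested.

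Among the 35 other pathway genes, none passed the test between E8 and MEF-based systems. At least 2-fold lower in E8 Medium were 3 of them, beside 2.62% of all probes, and 1 was higher, with a median of -0.21. Of the 19 response genes, none passed and 11 were at least 2-fold lower in E8 Medium, beside 2.62% of all probes. Their median was -1.30 beside 0.15 over all probes. Most of the 5 mesendoderm markers are also among the response genes, so these lists are not separate. Of the 5, 4 were at least 2-fold lower in E8 Medium. Their mean level was -5.68 to -3.80 in the 9 MEF-based cultures and -6.79 to -5.65 in the 14 cultures in E8 Medium with FGF. Of these markers 0 to 5 per culture were well above background in MEF-based media and 0 or 1 in E8 Medium with FGF, and the part of such cells in the members' levels was not tested.

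In the differentiated H1 culture, most members were low. Relative to the mean of the 3 H1 pre-cultures in E8 Medium, TDGF1 was lower by 179-fold (-2.04 against 5.21 to 5.68) and LEFTY1 by 62.8-fold (-3.07 against 2.39 to 3.21). GDF3 differed by -4.46 on the log2 scale (-4.79 against -0.35 to -0.31), on duplicate arrays at -3.68 and -5.90, 1 of them well above background. FOXH1 was 4.74-fold, LEFTY2 3.66-fold and NODAL 2.75-fold lower. NODAL was at -2.27 there, above the 3 cultures without FGF (-4.19 to -2.54), on duplicate arrays at -1.53 and -3.02. INHBA alone was higher by 2-fold or more, 20.7-fold at 1.45, and the mean level of the 8 fibroblast markers was 3.83 in this culture. SMAD7 was at 0.59 against 0.27 to 0.72. In all 7 of 9 members changed 2-fold or more, as did 29.7% of all probes, in 1 culture with no replicate and no test.

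The genes with the course most like that of NODAL were found by the mean absolute difference of centred levels over the 27 cultures, among 17353 other genes. They were RTP1 (0.57), GNA14 (0.59), LEFTY1 (0.63), IL6 (0.66) and HHLA1 (0.68), where NODAL itself deviates from its mean by 1.88 on average, and CER1 ranked 37 and LEFTY2 54. For LEFTY2 they were GRPR (0.79), FA2H (0.90), RPRM (0.95), CER1 (0.99) and LEFTY1 (1.01). For TDGF1 they were KLK13 (0.42), CXCL3 (0.46), CASP10 (0.46), GLB1L3 (0.47) and TNFSF11 (0.48), and GDF3 was the nearest member at rank 35. The cultures share lines, media and slides, so these likenesses are descriptions.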

How the data were processed

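Signal intensities were deposited by the authors as scanner output of Agilent Feature Extraction 10.7.3.1, with a background-subtracted processed signal per spot on a linear scale; the deposited series table holds the same intensities. The median signal and background intensities of each spot that the authors deposited entered only the normexp alternative. Marks for outliers and for signal well above background, deposited as yes or no scores per spot, were used as given.

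Each of 54 arrays has 62976 spots, of which 4259 are controls. Between 266 and 623 spots per array carried an outlier mark and were dropped. Remaining signals, with 1 as the lowest value, were put on the log2 scale, spots of 1 probe were averaged, and each array was centred on its own 75th percentile across the 42405 probes (182 to 913 on the linear scale). Well above background means that a proportion of 0.5 or more of the spots of a probe had the mark, as did 56.2% to 79.2% of probes. No spot was saturated, and the number of arrays limits the precision. Duplicate arrays were averaged as 1 culture. Probe names came from RefSeq accessions; 25715 probes have a symbol, and for several probes of a gene the brightest was taken. TDGF1 is listed there as CRIPTO.

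Groups and experiment numbers came from the sample titles and characteristics. limma 3.58.1 in R 4.3.3 (lmFit, eBayes, Benjamini-Hochberg over all probes, threshold 0.05) was fitted to 12 cultures for the 4-day arms, to 10 long-term cultures with the system as a block, to 5 system means for E8 against MEF-based media, and to the 5 differences of FGFC from bFGF for the interaction. Other comparisons have no test and count changes of 2-fold or more. The experiment number in the titles marks arms of 1 experiment; the deviations of such arms from the group means correlated at -0.162 to 0.516 (median 0.185, 13 of 18 over 0.1). Nothing says that the experiments, which the titles place at passages 49, 59 and 51 of 1 line, came from separately thawed stocks, and p-values measure the spread between these cultures. A fold is given as "at least" where no array of the dimmer group was well above background, against the higher of the lowest signal well above background and the probe's own signal. The fits, apart from the interaction, were run on simulated data with planted changes and the spread of the 4-day cultures. These data held no differences between lines or systems, so they cannot show how the fits over the 5 systems perform. Named beside the members are up to 6 genes with the largest changes per list and comparison past the test, and the 5 genes most like NODAL, TDGF1 and LEFTY2. One gene of the response list is not reported here. The members and gene lists were chosen with earlier results of these data known. Alternatives covered background correction, normalization, a floor, a filter, single duplicate arrays, blocks and left-out experiments or systems. Python 3.11.15 and matplotlib 3.10.9 were used for tables and figures.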

Additional observations from a re-analysis of the deposited data

Results flagged for a closer look

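FOXH1 differed by -0.1391 between FGFC and bFGF in H1 in MEF-CM, while the 4 other systems lay between 0.163 and 0.233. The gap to the nearest system took a share of 0.813 of the whole range, over the 95% limit for 5 values that chance passes in about 1 of 20 groups. The rule was applied to all 9 members, whose other shares were 0.329 to 0.546. With 9 groups screened, a pass of 1 of them by chance is more likely than that rate. The difference in MEF-CM is 1.10-fold, from 1 culture an arm.

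INHBA was higher with FGFC than with bFGF in both systems in E8 Medium (0.20 and 0.86) and lower in all 3 MEF-based systems (-0.05, -0.38 and -1.22). The mean difference between the kinds of system was 1.0824, with an unadjusted p of 0.0457 and an adjusted p of 0.999 in limma's interaction fit.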

How the results depend on the processing

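Of the values per member under an alternative, 925 kept their direction and their side of the threshold, 76 moved by more than the replicate spread, 13 gained and 15 lost the threshold and 33 changed sign. With the experiment as a replicate block, 6 members passed without FGF against bFGF, 5 against FGFC and 0 between FGFC and bFGF, where 5750, 4928 and 0 of all 42405 probes passed. Beyond LEFTY2 against bFGF (adjusted p = 0.0466, limma) and NODAL against FGFC (adjusted p = 0.00923, limma), the block changed no member's call. Leaving out single experiments left 2 to 3 members called against bFGF (of 1272 to 3557 probes) and 2 to 3 against FGFC (of 974 to 3840 probes). Between E8 and MEF-based systems, leave-one-out gave 0 to 4 members, the 4 without 253G1, which leaves 1 system in E8 Medium, and 0 without H1 in E8 Medium, and normexp gave 5, with adjusted p-values that rest on an infinite estimate of limma's prior degrees of freedom (4.83 otherwise). In 253G1, 1 member (CER1) changed 2-fold with quantile normalization and with the second array of each culture, as did 4254 and 4024 of all probes. CER1 was not well above background on any array of 253G1.

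Signs turned mostly for differences near 0. Between E8 and MEF-based systems, FOXH1 became 0.0061 with only long-term bFGF cultures and 0.0114 with second arrays, and ranged from -0.1832 to 0.1021 with a system left out (SMAD7 from -0.6231 to 0.1531). For the FGFC effect between the kinds of system, CER1 became 0.0119 with quantile normalization and 0.3511 with second arrays, and ranged from -1.1165 to 0.5478 with a system left out, GDF3 from -0.2153 to 0.5813 and NODAL from -1.8576 to 0.4396. For FGFC against bFGF at 4 days, TDGF1 was -0.0096 with second arrays and -0.0637 to 0.2058 with an experiment left out, and INHBA -0.0619 to 0.7041. In long-term culture, adding the 4-day cultures gave 0.037 for INHBA and 0.0041 for TDGF1, second arrays gave 0.0057 for TDGF1, first arrays -0.0066 for SMAD7 and normexp 0.0607 for LEFTY2. With a system left out there, the ranges were -0.0271 to 0.738 for CER1, -0.3623 to 0.1583 for INHBA, -0.9366 to 0.1366 for LEFTY1, -0.4858 to 0.3271 for LEFTY2, -0.4919 to 0.1646 for NODAL, -0.0373 to 0.3551 for SMAD7 and -0.0823 to 0.0472 for TDGF1. Against the cultures without FGF instead of the pre-cultures, NODAL in the differentiated culture differed by 0.8327. Without FGF against bFGF, INHBA was -0.0689 with second arrays and -0.0036 with the slide as a block, and -0.0106 to 0.1708 with an experiment left out. Against FGFC those ranges were -0.6387 to 0.0513 for INHBA and -0.1111 to 0.9771 for CER1. The cause of these changes was not tested.

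All-probe counts moved more: without FGF, 1272 to 9750 probes passed against bFGF (5400 as reported) and 974 to 6998 against FGFC (4575), lowest without experiment 3. The 9750 came from fitting only the 2 arms. The slide as a block gave 6998 against FGFC. Between E8 and MEF-based systems 93 probes, no member among them, passed with 15 cultures and the system as a random block, and 0 passed without the arrays of the 201B7 pre-culture, a choice made after seeing the data. Normexp gave 5788 probes changed 2-fold in the differentiated culture (12587 as reported), 20 to 328 between FGFC and bFGF by system, and 22 in the interaction (0 as reported). The median of all probes between E8 and MEF-based systems moved from 0.15 to -0.02 with normexp and 0.03 with quantile normalization. Each member has 1 probe, so the alternative with other probes of a member was not run. Probes not well above background, CER1 in E8 Medium above all, limit what differences can be seen.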
